A study of Mus musculus with 60 samples.

Results

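Cell adhesion genes were compared in nascent RNA of E14 cells, a mouse embryonic stem cell line, after knockdown of Esrrb. The 10 genes, of 24256 symbols in the files, are Icam1, Jam2, Ncam1 and Pecam1 of the immunoglobulin family, the cadherins Cdh1 and Cdh2, Epcam, the integrin subunits Itga6 and Itgb1, and the secreted integrin ligand Spp1. They were chosen by name, from a first look at these same libraries in which Icam1 and Ncam1 stood out as lower, so the differences below describe these libraries and are no independent test. Per gene, the transcript with the highest RPKM summed over the libraries was used.

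The siEsrrb group (2 libraries) had received an siRNA against Esrrb, an orphan nuclear receptor that maintains naive pluripotency, and the siCtrl group (2 libraries) a control siRNA. Both grew on gelatin with serum and LIF and were harvested at 72 h. RNA was extracted from the chromatin pellet, ribosomal RNA was depleted, and stranded libraries were made, so that RNA still being transcribed, introns included, is enriched. The series asks how an enhancer's loss of activity acts on genes that share its chromatin domain. All cells are of 1 line. The series text names nascent RNA as an exception to its biological replicates, and no label says that the 2 libraries of a group came from separate cultures, so p-values measure the spread between these libraries.

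Adhesion molecules hold stem cell colonies together and anchor them to the substrate. Cadherins bind cadherins of the next cell through calcium and connect to actin through catenins. Immunoglobulin-type molecules bind one another or integrins, and integrins pair an alpha with a beta subunit to grip laminin, fibronectin and other matrix proteins. E-cadherin is the main adhesion protein of naive stem cell colonies.

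Recovered depth was 22363943 and 61857158 reads in siEsrrb replicates 1 and 2, against 24764879 and 68002338 reads in siCtrl replicates 1 and 2. Esrrb itself had 1.38 and 2.20 RPKM in siEsrrb against 3.23 and 3.36 RPKM in siCtrl, and stood at 44.2% of control in replicate 1 and 67.0% in replicate 2. All 8 stem cell markers of the list passed the expression minimum, among them Sox2, with 20.8 and 21.5 RPKM in siEsrrb against 23.3 and 22.8 RPKM in siCtrl. RPKM below are as deposited, while percentages of control, means, overlaps and log2 fold changes use values scaled between libraries. A log2 fold change is siEsrrb over siCtrl on the scale of RPKM + 0.5, which understates changes of low genes. In bulk RNA, fewer cells of a type and less RNA per cell cannot be told apart, and nascent RNA does not measure protein.

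Of the 10 genes, 9 reached the mean of 0.5 RPKM needed for the fit, and Cdh2 did not. In 6 of the 9 both siEsrrb libraries lay below both siCtrl libraries, where 22.0% of all 9755 tested genes did so. In 1, Epcam, both lay above, where 21.8% of all did. The median log2 fold change of the 9 genes was -0.39, with -0.42 in replicate 1 and -0.34 in replicate 2, beside -0.0011 over all tested genes. At a mean of at least 2 RPKM, which leaves 6 of the genes, it was -0.13, and 3 of those 6 were lower. None of the 9 passed limma's adjusted test, nor did any of the 9755 genes (0%), with adjusted p from 0.247 for Icam1 to 0.747 for Itgb1. With 1 library left out, 12 genes passed without siEsrrb replicate 2 and 2 without siCtrl replicate 1, none of them an adhesion gene described here. At an unadjusted limma p under 0.05 stood 6 of the 9 genes as lower (5.33% of all genes) and 1 as higher (5.93% of all), 1098 genes in all, and voom without a replicate block passed 0 genes with 1189 at that level. Since the genes were picked from this comparison, those counts are description.

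**Figure D1:**
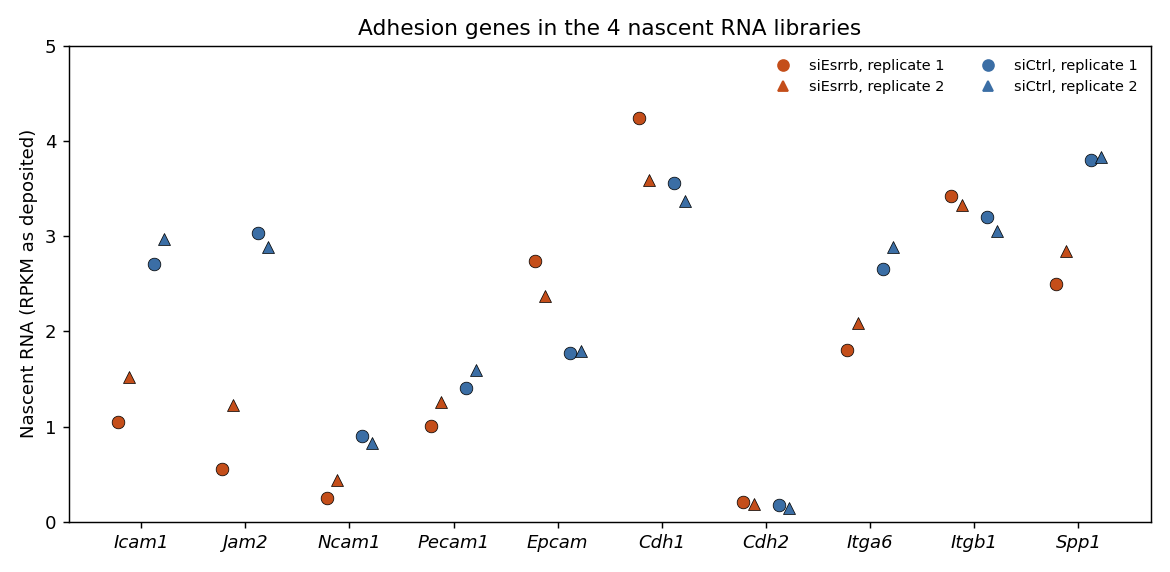
Nascent RNA level, in RPKM as deposited, of the 10 adhesion genes in each library (circles replicate 1, triangles replicate 2; siEsrrb orange, siCtrl blue). Icam1, Jam2, Ncam1, Pecam1, Itga6 and Spp1 have both siEsrrb points under both siCtrl points. Epcam, Cdh1, Cdh2 and Itgb1 have them above on this deposited scale. Once scaled, Cdh1, Cdh2 and Itgb1 overlap and only Epcam stays above.

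Icam1 and Jam2 had the most clearly separated levels. Icam1 encodes intercellular adhesion molecule 1, which leukocytes bind through the integrin LFA-1 and which inflammatory signals induce in many tissues. It had 1.05 and 1.52 RPKM in siEsrrb replicates 1 and 2 (302 and 1214 reads), against 2.71 and 2.98 RPKM in siCtrl replicates 1 and 2 (865 and 2605 reads). The highest siEsrrb value thus lay well under the lowest control value. Scaled means were 1.29 ± 0.215 RPKM in siEsrrb and 2.80 ± 0.0677 RPKM in siCtrl (SD, n = 2 each), which put Icam1 at 40.1% of control in replicate 1 and 52.5% in replicate 2. The log2 fold change was -0.89 (SE 0.11). The genes for the subunits of LFA-1 were near 0: Itgal had 0.0276 and 0.0453 RPKM in siEsrrb against 0.0395 and 0.0541 RPKM in siCtrl, and Itgb2 had 0.00886 and 0.0151 RPKM in siEsrrb against 0.00343 and 0.00916 RPKM in siCtrl.

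The bases before the start of Icam1 are shown because inflammatory induction of this gene is known to run through a site for NF-kappa-B, and because the gene was lower here. The sequence is RefSeq's, build GRCm38.p6, chr9:21015690-21015939 on the plus strand, 5′ to 3′ up to the base before the annotated start, and capitals mark the letters GGAAATTCC, a form of that site.
Icam1: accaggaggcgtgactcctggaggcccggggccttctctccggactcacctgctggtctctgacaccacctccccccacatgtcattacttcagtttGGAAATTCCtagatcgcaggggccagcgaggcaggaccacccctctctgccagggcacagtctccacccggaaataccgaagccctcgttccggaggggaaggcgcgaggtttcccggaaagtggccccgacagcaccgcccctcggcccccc

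That motif was picked after the sequence had been read. Searched on both strands from 250 bases before to 50 after the start, it lies in 0.317% of 32851 promoters of the table, and in 1 of the 5 promoters given there for these genes (2 of Spp1, 1 each of Icam1, Epcam and Itgb1). The extended half-site that Esrrb is known to bind, AAGGTCA, is not among the letters of the 5 windows and is in 4.72% of all. Its longer form TCAAGGTCA, which contains it, is in 0.423% of all and in none of the 5. Nothing about binding follows from either search.

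Jam2 encodes a junctional adhesion molecule that binds its own kind and Jam3 at cell contacts. It had 0.555 and 1.23 RPKM in siEsrrb (648 and 3978 reads), against 3.04 and 2.89 RPKM in siCtrl (3932 and 10259 reads). In both siEsrrb libraries it was under any control value, but the siEsrrb libraries also differed from each other, at 18.9% of control in replicate 1 and 43.7% in replicate 2. The log2 fold change was -1.33 (SE 0.23), with -1.74 in replicate 1 and -0.93 in replicate 2, the lowest of the 9 fitted genes and 22nd from the lowest of all 9755. Icam1 was 82nd. By level, Jam2 held rank 8 of 10 in siEsrrb, where it overlapped Icam1 and Pecam1, and rank 4 in siCtrl, where it overlapped Cdh1, Itgb1, Icam1 and Itga6. Icam1 and Jam2 were the 2 of the 9 genes whose groups were apart by at least 1.5-fold on RPKM + 0.5, as 0.615% of all tested genes were in the lower direction and 0.666% in the higher.

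Ncam1, the neural cell adhesion molecule, binds itself across cells and is best known from neurons and muscle. It was low throughout, with 0.249 and 0.440 RPKM in siEsrrb against 0.899 and 0.822 RPKM in siCtrl, but its length gave it 1656 and 8082 reads against 6610 and 16606. The groups were well separated, at 28.7% of control in replicate 1 and 54.8% in replicate 2, and the log2 fold change was -0.68 (SE 0.13). At this level the pseudocount pulls the fold change towards 0, and on recovered reads voom gave -1.34. Of its 4 transcripts, the shortest and the longest differ by 13334 bases. The difference in reads between these transcripts, over the difference in length, gave 0.282 and 0.623 RPKM in siEsrrb against 1.11 and 0.951 RPKM in siCtrl. That value was lower in both siEsrrb libraries, as was the whole gene. It assumes that the shorter transcript lies within the longer, which was not checked. The 7 other neural markers summed to 7.93 and 9.28 RPKM in siEsrrb against 5.83 and 6.25 RPKM in siCtrl. Without Nes the sums overlapped, at 2.48 and 3.68 RPKM in siEsrrb against 2.96 and 3.37 RPKM in siCtrl. Of the 4 tested, Nes (0.87, SE 0.11) and Sox1 (0.38, SE 0.11) were higher in both siEsrrb libraries, while Pax6 (-0.09, SE 0.09) and Neurod1 (-0.07, SE 0.28) overlapped. Tubb3, under the minimum, had 0.308 and 0.297 RPKM in siEsrrb against 0.541 and 0.473 RPKM in siCtrl. The other markers under the minimum, Map2 and Dcx, were higher in both siEsrrb libraries. Map2 had 0.0622 and 0.0519 RPKM in siEsrrb against 0.0368 and 0.0419 RPKM in siCtrl, and Dcx was near 0 throughout. The part of these genes in the difference of Ncam1 was not tested. Ncam1 overlaps the annotated gene Gm11149, which was near 0, and Jam2 overlaps Gm46557, which was not analysed here.

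Pecam1 (CD31) is a marker of endothelium and platelets that mouse embryonic stem cells also carry. It had 1.00 and 1.26 RPKM in siEsrrb against 1.40 and 1.60 RPKM in siCtrl, the same at all 4 of its transcripts. Its difference was smaller, 74.2% and 80.8% of control in replicates 1 and 2, with a log2 fold change of -0.27 (SE 0.07) and no overlap of the groups. The 8 other endothelial markers were all under the expression minimum, with a summed 0.486 and 0.691 RPKM in siEsrrb against 0.442 and 0.649 RPKM in siCtrl. The endothelial cadherin Cdh5 was near 0 in every library, and the summed level of this list was no lower in siEsrrb. Its genes differed among themselves. Vwf was lower in both siEsrrb libraries, at 0.0465 and 0.0944 RPKM against 0.109 and 0.185 RPKM in siCtrl. Kdr, Tek and Cldn5 were higher in both, and the rest overlapped. Kdr was so only once scaled, since its deposited values overlapped, and Cldn5 rested on few reads (4 and 16 in siEsrrb against 1 and 11 in siCtrl). Leukocyte markers summed to 0.640 and 0.842 RPKM in siEsrrb against 1.22 and 1.26 RPKM in siCtrl. Laptm5 alone made most of this, at 0.447 and 0.662 RPKM against 1.09 and 1.08 RPKM, and the defining leukocyte gene Ptprc was at or near 0. The 6 leukocyte markers besides Laptm5 were under the minimum, and none of them was lower in both siEsrrb libraries. Itgam (0.0328 and 0.0437 RPKM in siEsrrb against 0.0210 and 0.0216 RPKM in siCtrl), Itgb2 and Cd48 were higher in both. Ptprc, Itgal and Coro1a overlapped. Fibroblast markers summed to 3.62 and 4.55 RPKM in siEsrrb against 3.69 and 4.23 RPKM in siCtrl. Vim alone made most of this, at 3.36 and 3.88 RPKM against 3.53 and 3.74 RPKM. The 7 others were under the minimum, with Lum at 0 in every library. The part of Laptm5 in these differences was not tested. Of the 8 stem cell markers, 3 were lower in both siEsrrb libraries (Zfp42 -0.85, SE 0.15; Nanog -0.47, SE 0.16; Tdgf1 -0.08, SE 0.12), Pou5f1 was higher in both (0.42, SE 0.19) and 4 overlapped, with a list median of 0.02. Their part was not tested either.

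Epcam was the 1 gene that was higher in both siEsrrb libraries. Epcam, a homophilic adhesion protein of epithelia and stem cells, had 2.74 and 2.38 RPKM in siEsrrb (929 and 2226 reads), against 1.77 and 1.80 RPKM in siCtrl (665 and 1852 reads). Both siEsrrb libraries were above both controls, at 160% of control in replicate 1 and 135% in replicate 2. Scaled means were 2.62 ± 0.516 RPKM in siEsrrb and 1.76 ± 0.140 RPKM in siCtrl (SD, n = 2 each), and the log2 fold change was 0.45 (SE 0.14), or 0.28 without siEsrrb replicate 1. The bases before its start are given as those of the 1 gene that was higher (RefSeq, GRCm38.p6, chr17:87635729-87635978, plus strand, 5′ to 3′, no capitals since no searched motif was found).
Epcam: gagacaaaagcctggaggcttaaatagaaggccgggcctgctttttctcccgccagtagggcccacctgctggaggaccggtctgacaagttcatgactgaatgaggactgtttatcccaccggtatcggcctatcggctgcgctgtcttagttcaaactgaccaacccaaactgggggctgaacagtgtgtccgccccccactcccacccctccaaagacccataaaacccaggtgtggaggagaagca

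Cdh1, which encodes E-cadherin, had 4.25 and 3.59 RPKM in siEsrrb against 3.56 and 3.37 RPKM in siCtrl. As deposited the groups were narrowly apart, and once scaled they overlapped, with means of 4.01 ± 0.862 RPKM in siEsrrb and 3.43 ± 0.438 RPKM in siCtrl (SD, n = 2 each). The log2 fold change of 0.19 (SE 0.17) was about the size of its error, and without siEsrrb replicate 1 it was -0.0067. Cdh2, which encodes N-cadherin of neural and mesenchymal cells, had 0.209 and 0.184 RPKM in siEsrrb against 0.171 and 0.144 RPKM in siCtrl, and its scaled groups also overlapped. With all genes above 0 in the fit, Cdh2 had 0.09 (SE 0.06). Per length, Cdh1 stood 20.3 and 19.4 times above Cdh2 in siEsrrb, against 20.8 and 23.5 times in siCtrl.

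**Figure D2:**
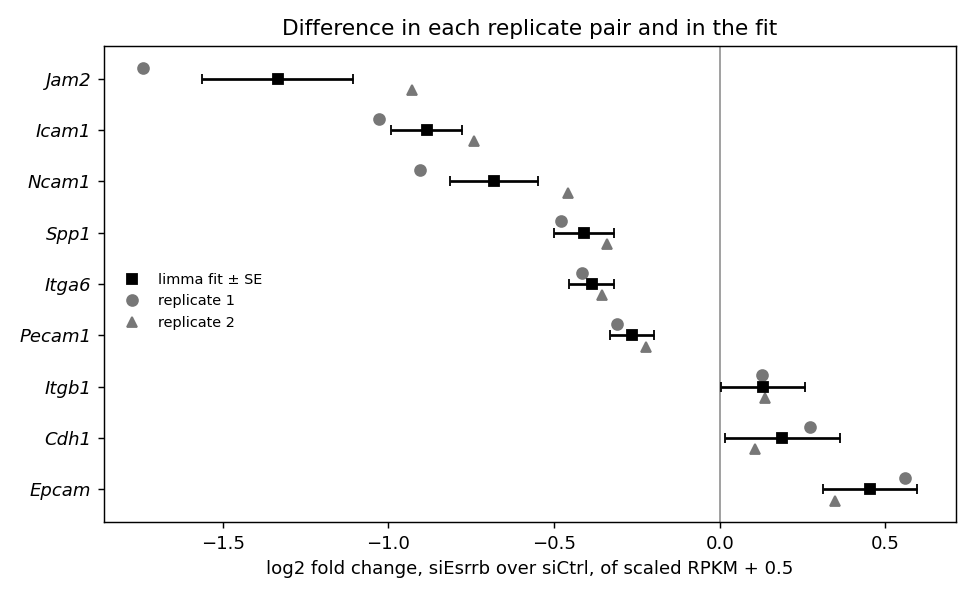
Log2 fold change of scaled RPKM + 0.5, siEsrrb over siCtrl, for the 9 fitted genes (squares: limma fit with SE; circles and triangles: the pair of libraries with replicate number 1 or 2). The 6 lower genes, from Jam2 to Pecam1, lie left of 0 in both replicates, and Epcam lies farthest to the right.

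Itga6 and Itgb1 encode subunits that pair into the laminin receptor alpha-6 beta-1, and on scaled values only Itga6 had separate groups. The difference between these genes was not tested. Itga6 had 1.80 and 2.09 RPKM in siEsrrb (2879 and 9227 reads), against 2.65 and 2.89 RPKM in siCtrl (4693 and 14038 reads). Its groups did not overlap, its replicates were close at 70.4% and 74.1% of control, and its log2 fold change was -0.39 (SE 0.07). Itgb1, the partner of many alpha subunits, had 3.42 and 3.33 RPKM in siEsrrb against 3.21 and 3.05 RPKM in siCtrl. Those deposited values were apart and the scaled ones overlapped, with a log2 fold change of 0.13 (SE 0.13) that ranged from 0.02 to 0.24 with 1 library left out. The level of Itga6 per length was 0.526 and 0.627 of that of Itgb1 in siEsrrb, against 0.827 and 0.945 in siCtrl.

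Spp1 encodes osteopontin, a secreted phosphoprotein of bone and many other tissues that integrins and CD44 bind. Its used transcript had 2.50 and 2.85 RPKM in siEsrrb (272 and 856 reads), against 3.80 and 3.84 RPKM in siCtrl (458 and 1268 reads). This put it at 68.1% and 76.1% of control in replicates 1 and 2 with no overlap, and its log2 fold change was -0.41 (SE 0.09). By level Spp1 held rank 3 of 10 in siEsrrb and rank 1 in siCtrl, where Cdh1 and Itgb1, ranks 2 and 3, overlapped it or each other.

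The other 4 Spp1 transcripts begin 1081 bases earlier, which is also the distance between the 2 starts that RefSeq gives. The values of the stretch between them came from few reads, 25 and 65 in siEsrrb against 35 and 133 in siCtrl, or 1.03 and 0.972 RPKM against 1.31 and 1.81 RPKM. In every library this stretch was covered less densely than the shorter transcript. The bases before the earlier start are shown to place it (RefSeq, GRCm38.p6, chr5:104434861-104435110, plus strand, 5′ to 3′, no searched motif found).
Spp1: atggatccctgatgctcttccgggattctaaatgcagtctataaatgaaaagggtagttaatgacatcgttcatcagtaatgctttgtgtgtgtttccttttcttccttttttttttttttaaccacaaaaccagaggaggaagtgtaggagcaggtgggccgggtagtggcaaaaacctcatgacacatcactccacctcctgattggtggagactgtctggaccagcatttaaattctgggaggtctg

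All 9 fitted genes had the same sign in both replicates, as 7553 of the 9755 tested genes had. In 8 of the 9 the absolute log2 fold change was larger in replicate 1 than in replicate 2, Itgb1 being the other, and over all tested genes this was so for 72.4%. Replicate 1 is also the pair with the lower nascent Esrrb RNA relative to control, and the pair of shallower libraries. Nascent RNA does not measure the mature Esrrb RNA left after knockdown, and the part of either was not tested.

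The tested genes nearest to the adhesion genes had mostly small differences, and genes under the expression minimum were passed over. The nearest tested genes on either side, in the order of the GRCm38.p6 annotation, had log2 fold changes from -0.15 to 0.11 for 18 neighbours, all but those of Itga6. Beside Icam1, the mitochondrial ribosome gene Mrpl4 had -0.13 (SE 0.08) and the ferredoxin gene Fdx2 -0.02 (SE 0.07). Icam4 and Icam5, on the same chromosome as Icam1, were under the minimum. Icam4 was lower in both siEsrrb libraries on few reads (0 and 1 against 2 and 11 in siCtrl), and Icam5 overlapped. Beside Jam2, Mrpl39 had -0.15 (SE 0.06) and the ATP synthase gene Atp5j -0.12 (SE 0.08), and each was lower in both siEsrrb libraries. Cdh3, the P-cadherin gene next to Cdh1, had -0.04 (SE 0.11).

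Both neighbours of Itga6 were lower with it, as were those of Jam2, but by more than those of Jam2. Platr26, a noncoding RNA gene, had 0.317 and 0.498 RPKM in siEsrrb against 0.692 and 0.800 RPKM in siCtrl (log2 fold change -0.44, SE 0.10). Pdk1, a kinase that holds back pyruvate dehydrogenase, had 1.40 and 2.44 RPKM in siEsrrb against 2.85 and 3.99 RPKM in siCtrl (-0.68, SE 0.20). Of all 20 neighbours 9 were lower in both siEsrrb libraries and 0 were higher in both, beside 22.0% and 21.8% of all genes. Of the 12 neighbours of the 6 lower genes 6 were lower in both. Leaving out those of Itga6, 7 of the 18 other neighbours were lower in both. No neighbour passed limma's adjusted test (smallest adjusted p 0.311), and no difference between a gene and its neighbour was tested.

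**Figure D3:**
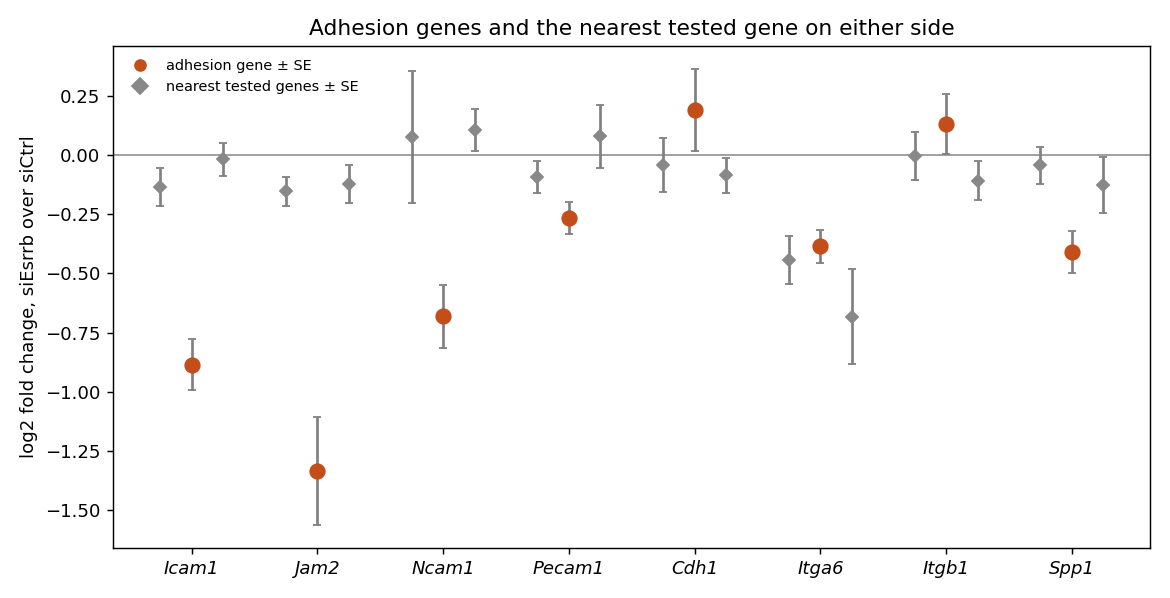
Log2 fold change with SE, siEsrrb over siCtrl, of 8 adhesion genes (orange circles; Epcam is not drawn) and of the nearest tested gene on either side (grey diamonds). Beside Icam1, Jam2 and Ncam1 the neighbours lie much nearer 0 than the gene itself, with both neighbours of Jam2 slightly under 0. Both neighbours of Itga6 lie at or under its own value.

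In the lists that follow, lower and higher mean in both siEsrrb libraries, as was so for 22.0% and 21.8% of all tested genes. Catenins and other genes of the junction plaque had a median log2 fold change of 0.0015 over 12 tested of 17 listed. Of these, 2 were lower in both siEsrrb libraries and 1 was higher. Ctnnb1, beta-catenin, had 8.10 and 8.48 RPKM in siEsrrb against 7.93 and 8.71 RPKM in siCtrl, with overlap. Ctnna1, alpha-catenin, which joins cadherins to actin, was 1 of the lower ones (-0.20). In the other cadherins, 38 of 46 genes in the files were under the minimum, and of the 8 tested 2 were lower and 2 were higher (median 0.21). Pcdh1, a protocadherin, had 1.11 and 0.825 RPKM in siEsrrb against 0.439 and 0.453 RPKM in siCtrl (0.65, SE 0.16), and the giant cadherin Fat1 had 0.38 (SE 0.22) with overlap.

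Of the other integrin subunits 21 of 24 were under the minimum. Itga5, the fibronectin receptor subunit, had 3.09 and 3.25 RPKM in siEsrrb against 3.63 and 3.73 RPKM in siCtrl (-0.15, SE 0.09). Itga3 and Itgav overlapped (0.18 and -0.17). Integrin adaptors and kinases lay on both sides, with 6 of 15 lower (22.0% of all genes), 4 higher (21.8% of all) and a median of -0.03. Parvb, a parvin of the complex that ties integrins to actin, had -0.51 (SE 0.08), whereas Ilk, the integrin-linked kinase gene of the same complex, had 0.43 (SE 0.11) and Zyx, zyxin of focal adhesions, 0.53 (SE 0.17).

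Among 7 tested secreted integrin ligands besides Spp1, 3 were higher and 2 lower (median -0.02). The matricellular genes Ccn2 and Ccn1 had 10.8 and 10.1 RPKM, and 8.11 and 7.77 RPKM, in siEsrrb, against 6.23 and 7.22 RPKM, and 5.21 and 5.64 RPKM, in siCtrl. Their log2 fold changes were 0.64 (SE 0.14) and 0.55 (SE 0.13), and that of Thbs1, thrombospondin 1, was 0.51 (SE 0.14). The nidogen genes of basement membrane were the lower ones, Nid1 with 0.307 and 0.500 RPKM in siEsrrb against 1.00 and 1.06 RPKM in siCtrl (-0.75, SE 0.11) and Nid2 with -0.43 (SE 0.09). Fn1, fibronectin, had -0.02 (SE 0.16).

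Immunoglobulin adhesion molecules other than the described ones had a median of 0.06 over 12 tested of 35, with 3 higher and 1 lower. Nfasc, neurofascin of neurons, was higher and apart by at least 1.5-fold, with 1.54 and 1.76 RPKM in siEsrrb against 0.739 and 1.01 RPKM in siCtrl (0.68, SE 0.08). Mcam was the lower one (-0.43, SE 0.16). Tight junction genes had 7 of 12 higher, beside 21.8% of all genes, and 0 lower, beside 22.0% (median 0.16), while on deposited RPKM 5 were higher and 1 was lower. The higher ones include Cldn7, a claudin that binds Epcam, with 1.52 and 1.04 RPKM in siEsrrb against 0.884 and 0.924 RPKM in siCtrl (0.36, SE 0.20), Cgn, cingulin (0.35, SE 0.15), and the polarity gene Patj (0.41, SE 0.08).

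Among tetraspanins and partners of Epcam (5 tested, 1 higher and 1 lower, median 0.12), Cd9, an integrin-associated tetraspanin, had 1.79 and 2.35 RPKM in siEsrrb against 2.88 and 3.12 RPKM in siCtrl (-0.42, SE 0.09). Of 21 listed regulators of epithelial cadherin and proteases, 11 were tested and 10 were under the minimum. Of the 11 tested, 5 were lower, beside 22.0% of all genes, and 2 higher, beside 21.8% (median -0.10). Klf4, a Krüppel-like factor known to activate Cdh1 in epithelia, had -1.45 (SE 0.20), and Zeb1, a repressor of Cdh1, had 0.390 and 0.645 RPKM in siEsrrb against 0.805 and 0.835 RPKM in siCtrl (-0.37, SE 0.12). Of the 10 under the minimum, Snai1, Snai2, Zeb2, Twist2, Ovol1 and Ovol2 were higher in both siEsrrb libraries. Grhl3 and Prrx1 were lower in both, and Twist1 and Adam10 overlapped. Zeb2 had 0.102 and 0.156 RPKM in siEsrrb against 0.0758 and 0.0920 RPKM in siCtrl. Esrp1, a splicing factor of epithelial cells, was higher (0.56, SE 0.23). None of the genes in these lists passed limma's adjusted test.

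**Figure D4:**
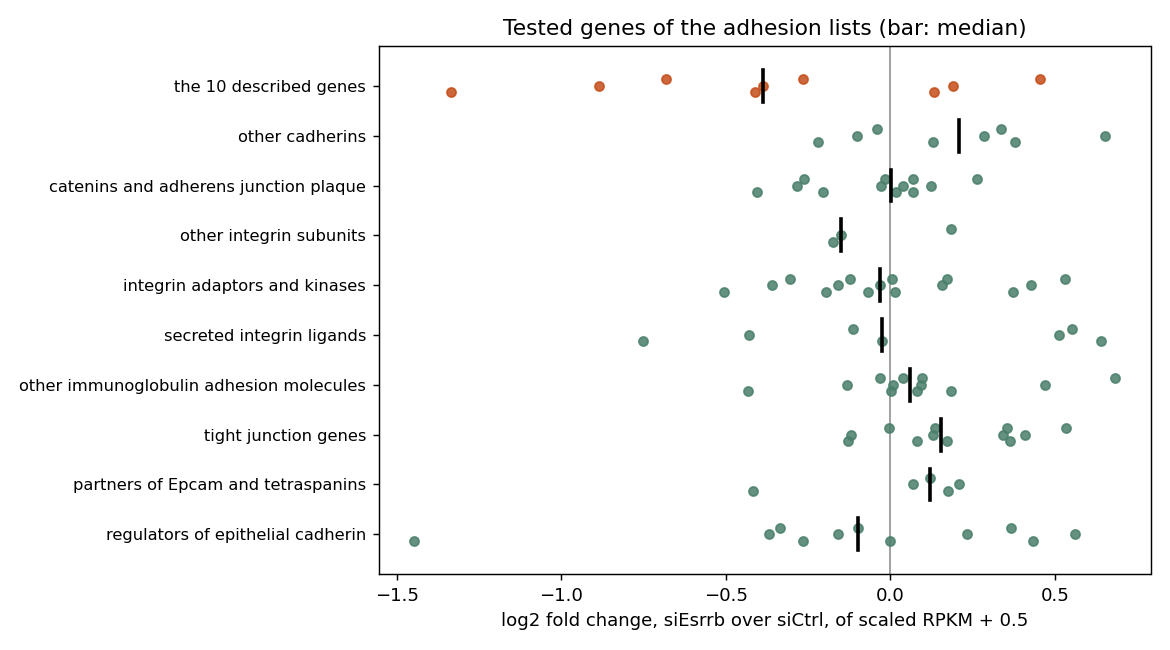
Log2 fold change, siEsrrb over siCtrl, of each tested gene (points) in the 10 described genes (9 tested) and in the other adhesion lists, with the median as a bar. Medians of the other lists lie between -0.15 and 0.21, and that of the 9 genes at -0.39.

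The genes whose pattern over the 4 libraries was most like that of Icam1 were Slc29a1, a nucleoside transporter, Gjc1, a connexin of gap junctions, Fblim1, an adaptor of cell-matrix contacts, the Akt coactivator gene Tcl1 and the zinc-finger gene Zmym3. Likeness was the distance between log2 values centred on each gene's mean, among 6848 genes with a mean of at least 1 RPKM, and these 5 had distances from 0.0544 to 0.112. Gjc1 had 1.13 and 1.69 RPKM in siEsrrb against 2.91 and 3.05 RPKM in siCtrl.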

How the data were processed

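Nascent RNA-seq libraries of E14 cells were analysed: 2 of siEsrrb and 2 of siCtrl, grouped by their titles, where the later library of each group carries a replicate number. The other 56 samples of the series were not analysed here. The authors deposited 1 RPKM value (read density scaled to transcript length and library size) per RefSeq transcript for 34929 transcripts. The submitters' processing notes name CASAVA 1.4, TopHat2 and, for replicate 1, Bowtie 1.1.1 and Bowtie2, with build mm9. The counting program, its use of strand and its handling of reads with several alignments are not stated in the labels or headers. The deposited RPKM table of the whole series equals the replicate 1 values at all 34929 transcripts and was used for this check only. RefSeq IDs were paired with symbols of GRCm38.p6 (34626 transcripts, 24256 symbols), and 303 that had none were dropped. No coordinate was carried between the builds: the annotation gave only names and gene order.

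For each symbol the transcript with the highest summed RPKM was kept. RPKM were multiplied by a median-of-ratios factor per library (0.925 to 1.09), 0.5 RPKM was added, and the log2 values were fitted with limma 3.58.1 in R 4.3.3 (lmFit, then eBayes with a trend, without a replicate block). The fit covered 9755 genes that averaged 0.5 RPKM or more. P-values are two-sided and Benjamini-Hochberg adjusted over these genes, with a threshold of 0.05. The script was tested on simulated data. The authors' RPKM could be turned back into reads: at every one of 31771 transcripts above 0, the values were whole reads within 0.0002 of a read. The recovered lengths lay within 1% of the gene span with introns at 74.7% of the 15773 genes that have 1 transcript. Those reads give the depths and the voom alternatives. Alternatives covered the pseudocount, the filter, the scaling, the transcript, the model and each library left out. Beside the 10 members, the named genes are Esrrb, the nearest tested gene on either side of each member, and, per list, genes whose groups stood apart 1.5-fold or more and averaged 1 RPKM or more, the 3 largest changes and the 2 highest levels. From these a selection is given, and other genes were chosen for the text after their values were seen. The members and lists were chosen with earlier results of these data known.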

Additional observations from a re-analysis of the deposited data

How the results depend on the processing

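Icam1, Jam2, Ncam1, Pecam1, Itga6, Spp1, Epcam and Itgb1 kept their direction under every alternative in which they were fitted. Icam1 ranged from -1.07 to -0.73, Jam2 from -1.73 to -1.04 and Epcam from 0.28 to 0.62. Cdh1 changed sign without siEsrrb replicate 1 (-0.0067). On RPKM as deposited, 3 of the 9 fitted genes were higher in both siEsrrb libraries, namely Epcam, Cdh1 and Itgb1. Once scaled, Epcam alone was. No gene passed in the planned fit, while 0 to 12 passed with 1 library left out (12 without siEsrrb replicate 2 and 2 without siCtrl replicate 1), where the lone library of a group is assumed to vary like the others. Members lower in both siEsrrb libraries numbered 3 of 6 fitted at a mean of at least 2 RPKM, since that filter removes Jam2, Ncam1 and Pecam1. The members' median was -0.45 with a pseudocount of 0.1, -0.33 with a pseudocount of 1, -0.33 with no filter on low values (Cdh2 included), -0.13 at a mean of at least 2 RPKM, -0.45 with voom on recovered reads and -0.44 with voom and a replicate block.

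No label says that equal replicate numbers mark a shared culture or day. Same-numbered libraries were nonetheless alike in depth, with 22363943 and 24764879 reads in replicate 1 and 61857158 and 68002338 in replicate 2. The processing notes name Bowtie and Bowtie2 for replicate 1 only. Deviations of same-numbered libraries from their group means correlated at 0.39 across 9755 genes, so a fit without a block leaves out something these libraries share. The planned fit with the replicate block passed 0 genes. Voom on recovered reads with a replicate block passed 2673 genes, among them 8 of the 9 fitted adhesion genes, all but Itgb1. Counting error is widest for values from few reads, such as Itgb2 (3 to 33 reads), Itgal, Cldn7, the stretch of Spp1 and the extra bases of Ncam1. Having 2 libraries per group limits the precision of every difference given.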
